A study of Homo sapiens with 4 samples.

Results

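The MAGE genes (melanoma antigen genes) examined here were 10 named genes, found in the deposited count table by their symbol. Of these, 9 had a row among the 16839 gene rows of the table, and the expression of MAGEA4 was not analysed here. They fall into a germline-restricted type, with MAGEC1, MAGEC2, MAGEA3, MAGEA6 and MAGEB2 measured, and a broadly expressed type of 4 genes, MAGED1, MAGED2, MAGEE1 and MAGEF1. The family was selected on differences in counts between the same shSETD8 and shNull libraries, known from earlier work on these data. The differences of the members between the groups are therefore given as a description. Where the fit over all genes called a member, the call is reported as a count and is no independent test of that gene. All 9 measured genes passed the filter on low counts.

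All libraries were stranded mRNA libraries of D458, a line of human medulloblastoma cells. The cells of both groups had taken up lentiviral short hairpin RNAs and were kept for 14 days under puromycin (1 µg/mL). The shSETD8 group (2 libraries) carried a hairpin against SETD8, a histone H4 methyltransferase, with a knockdown of 80% per the labels. The shNull group (2 libraries) carried a non-targeting hairpin. Per the labels, the 2 libraries of a group came from separate clones, and differences between clones are part of the spread within a group. The sources used here do not say which SETD8 hairpin each clone carried. Total counts were 52627366 and 49064974 in shSETD8 replicates 1 and 2, and 44527591 and 40908334 in shNull replicates 1 and 2.

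The proteins of this family share the MAGE homology domain, through which many of them bind RING-type E3 ubiquitin ligases. Germline-restricted members, also called type I or cancer-testis antigens, are normally transcribed in testis and are silenced elsewhere by promoter DNA methylation. Tumours can express them again. Broadly expressed members, or type II, are transcribed in many adult tissues, the brain included.

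The targeted gene was checked first. Of the shSETD8 libraries, replicate 1 held 14.0 and replicate 2 held 26.4 CPM of SETD8 (CPM, a gene's count per M counts of TMM-normalised library size), with 38.9 and 41.6 CPM in shNull. This left 34.7% and 65.5% of the mean level of shNull. Of the cell type markers examined, those of group 3 medulloblastoma summed to 6029 and 6072 CPM in shSETD8 and to 6170 and 5859 CPM in shNull. Most of this was MYC and OTX2, and single markers differed. NRL was at 22.3 and 170 CPM in shSETD8 and at 45.7 and 36.9 CPM in shNull. GABRA5 was higher in both shSETD8 libraries, at 53.1 and 61.3 CPM against 41.2 and 47.8 CPM. OTX2 was lower in both, at 2115 and 2185 CPM against 2481 and 2318 CPM. The groups of MYC, EYS, IMPG2 and CRX overlapped. Of 6 germ cell markers 3 had a row. Counts were near 0 for a pair of them, with 1 and 0 counts of DAZL in shSETD8 and 0 and 0 in shNull, and 3 to 5 counts of SYCP3 in every library. The third germ cell marker with a row, POU5F1, was at 1.96 and 2.89 CPM in shSETD8 and at 4.58 and 4.83 CPM in shNull. Summed markers of fibroblasts were 32.0 and 39.5 CPM in shSETD8 and 64.9 and 53.0 CPM in shNull, and were carried by DCN and LUM. COL1A1 went the other way, at 3.81 and 4.81 CPM in shSETD8 and 1.88 and 1.97 CPM in shNull, and COL1A2 had 5 and 5 counts in shSETD8 and 13 and 4 in shNull. Melanocyte markers summed to 176 and 126 CPM in shSETD8 and 197 and 179 CPM in shNull, nearly all of it DCT, and blood markers to 1.90 to 2.29 CPM in every library. Neural markers summed to 260 and 97.0 CPM in shSETD8 and to 152 and 155 CPM in shNull. Most of this was NES, at 212 and 61.6 CPM in shSETD8 and 94.1 and 112 CPM in shNull. The part of these markers in the MAGE values was not tested. In bulk RNA, fewer cells expressing a gene and less RNA per cell cannot be told apart.

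The 5′ ends of 4 germline-restricted genes are shown, the neighbours MAGEC1 and MAGEC2 because MAGEC1 was lower in both shSETD8 libraries and MAGEC2 was not, MAGEA3 because MAGEA6 has the same window, and MAGEB2 as the gene with the lowest level. The windows run from 120 bases before to 30 bases after the annotated start, from RefSeq on build GRCh38.p14, and capitals mark GGATGTG on either strand. The MAGEC1 window lies at chrX:141903774-141903923, plus strand, that of MAGEC2 at chrX:142205261-142205410, minus strand, that of MAGEA3 at chrX:152698674-152698823, plus strand, and that of MAGEB2 at chrX:30215443-30215592, plus strand.
MAGEC1: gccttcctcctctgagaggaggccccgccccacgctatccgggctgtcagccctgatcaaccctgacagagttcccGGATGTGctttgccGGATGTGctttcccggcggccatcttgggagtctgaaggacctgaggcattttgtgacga
MAGEC2: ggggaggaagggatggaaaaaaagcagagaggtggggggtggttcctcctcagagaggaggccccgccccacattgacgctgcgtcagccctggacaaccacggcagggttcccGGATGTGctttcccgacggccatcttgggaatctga
MAGEA3: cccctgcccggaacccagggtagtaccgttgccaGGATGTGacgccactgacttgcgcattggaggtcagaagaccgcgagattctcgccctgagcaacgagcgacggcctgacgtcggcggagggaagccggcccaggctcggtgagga
MAGEB2: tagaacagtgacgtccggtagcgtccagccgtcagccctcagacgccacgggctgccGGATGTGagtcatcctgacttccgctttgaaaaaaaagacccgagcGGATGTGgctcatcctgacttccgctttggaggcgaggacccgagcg

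Over the full RefSeq windows of 300 bases, MAGEA3 and MAGEA6 were identical at 300 of 300 positions. MAGEC1 and MAGEC2 matched at 211 of 351 aligned columns, and the rest were 38 mismatches and 102 gap columns. MAGEC1 and MAGEA3 matched at 145 of 336, with 119 mismatches and 72 gap columns. MAGEC1 and the broadly expressed MAGEE1 matched at 134 of 343, with 123 mismatches and 86 gap columns. No baseline from unrelated windows was taken. The letters GGATGTG, chosen after these windows had been read, stood on either strand in all 10 windows of the 6 germline-restricted genes, MAGEA4 included. They stood in 0 of 6 windows of the 4 broadly expressed genes and in 4.29% of all 35116 promoter windows. The letters CCGGAT, which can overlap GGATGTG, were found in 8 of 10 germline-restricted windows, in 0 of 6 broadly expressed ones and in 7.12% of all windows. CCGGAA, another form of the core bound by ETS factors, was found in 2 of 10, in 3 of 6 and in 17.2%. The 5 windows of MAGEA4 belong to 1 gene and those of MAGEA3 and MAGEA6 are identical, so the windows are not separate observations. By gene, CCGGAT was found in 4 of the 6 germline-restricted genes. The number of CpG dinucleotides per window, from 10 to 21 over all members, lay around the median of 14 over all promoter windows.

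Some members also share transcript sequence, which bears on reads of 50 bases. In GENCODE v29 transcripts, 56.5% of the distinct 50-base windows of MAGEA3 and 53.9% of those of MAGEA6 also occur in another gene. Most of this is the pair itself: 981 windows are common to both, and their coding sequences differ at 18 of 942 bases. The first 50 bases of the MAGEA3 coding sequence, written on the coding strand, occur in 4 genes of chromosome X, MAGEA3, MAGEA6, MAGEA2 and MAGEA2B.
MAGEA3: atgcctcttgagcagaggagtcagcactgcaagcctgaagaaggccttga
For the other members the shared part was small, with 0.383% of windows in MAGEC1, 0.0515% in MAGEC2, 0.540% in MAGED1, 1.62% in MAGED2 and 0% in MAGEB2, MAGEE1 and MAGEF1. The sources used here do not say how reads that match several genes were counted, and the split between MAGEA3 and MAGEA6 is uncertain.

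**Figure D1:**
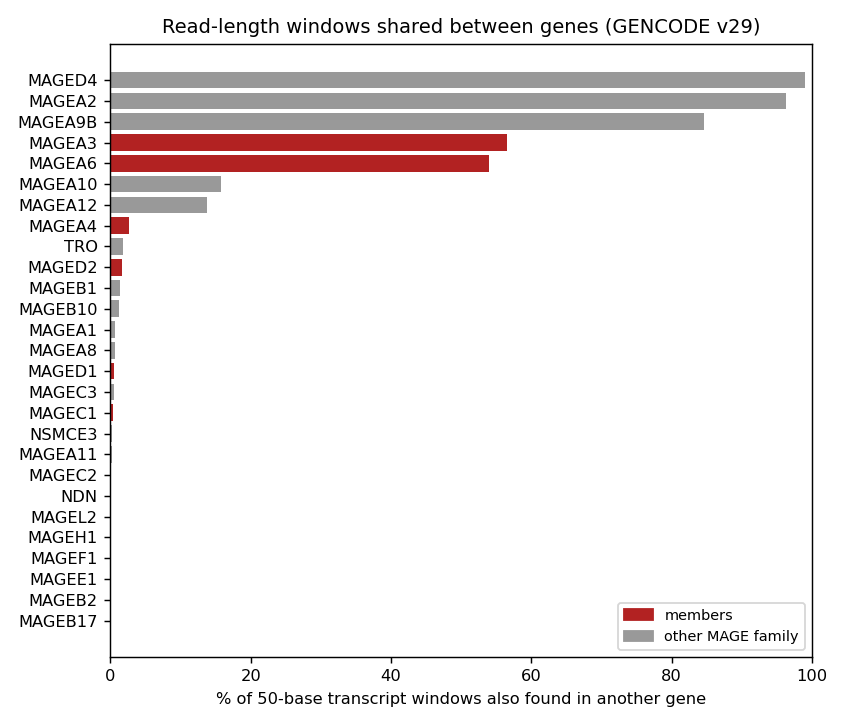
Bars give the share of distinct 50-base transcript windows (%) of each MAGE family gene that also occur in another gene of GENCODE v29, with the examined members in red and other family genes in grey. MAGEA3 and MAGEA6 share 56.5% and 53.9% of their windows, while MAGEC1, MAGEC2, MAGEB2 and the broadly expressed members share at most 1.62%.

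Among the germline-restricted genes, MAGEC1, known as the cancer-testis antigen CT7 and as a myeloma antigen, stood furthest apart between the groups. It had 1036 and 923 counts in shSETD8 replicates 1 and 2, against 2535 and 3310 counts in shNull. On the CPM scale it was at 19.8 and 18.9 in shSETD8 and at 57.4 and 79.6 in shNull. Both shSETD8 libraries were low and lay close together, and the groups did not overlap. The shSETD8 libraries held 28.8% and 27.6% of the shNull mean, while for SETD8 they held 34.7% and 65.5%. Means were 19.3 ± 0.604 CPM in shSETD8 and 68.5 ± 15.7 CPM in shNull (SD, n = 2 each), and the log2 fold change was -1.83 ± 0.18 (SE, shSETD8 over shNull). Leaving out any of the 4 libraries gave log2 fold changes of -2.04 to -1.57.

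MAGEC2, the neighbouring coding gene to MAGEC1 in the RefSeq gene order of GRCh38.p14, did not follow it. Its protein binds TRIM28, also called KAP1, a ligase and transcriptional corepressor. MAGEC2 was at 98.9 and 149 CPM in shSETD8 replicates 1 and 2, against 98.9 and 103 CPM in shNull. Only shSETD8 replicate 2 was high, and replicate 1 lay at the level of the shNull libraries. Its log2 fold change was 0.30 ± 0.20, but it was -0.028 without shSETD8 replicate 2 and 0.57 without replicate 1. MAGEC1 made up 16.6% (95% Clopper-Pearson interval 15.7 to 17.6) and 11.2% (10.6 to 11.9) of the MAGEC1 and MAGEC2 counts in shSETD8. In shNull it made up 36.7% (35.6 to 37.9) and 43.7% (42.6 to 44.8). These intervals cover counting error only, and the shares did not overlap between the groups. The third gene of this stretch, MAGEC3, was near the detection limit, with 6 and 10 counts in shSETD8 and 8 and 12 in shNull.

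MAGEA3 and MAGEA6, near-identical proteins that form ligases with TRIM28 and have been linked to degradation of the energy sensor AMPK, were the most abundant members. MAGEA3 was at 264 and 291 CPM in the shSETD8 libraries, against 289 and 302 CPM in shNull. MAGEA6 was at 222 and 246 CPM in the shSETD8 libraries, against 240 and 251 CPM in shNull. For both genes shSETD8 replicate 1 was the lowest library and replicate 2 lay within the shNull range, so the groups overlapped. The log2 fold changes were -0.09 ± 0.09 for MAGEA3 and -0.07 ± 0.10 for MAGEA6. The ratio of MAGEA3 to MAGEA6 counts was 1.19 and 1.18 in shSETD8 and 1.20 and 1.20 in shNull, and with over 50% of windows in common these are not separate measurements.

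MAGEB2, a testis gene of a separate cluster on the short arm of chromosome X, was barely expressed. It had 22 and 25 counts in shSETD8, against 29 and 58 counts in shNull. The exact 95% Poisson intervals of the counts were 13.8 to 33.3 and 16.2 to 36.9 in shSETD8, and 19.4 to 41.6 and 44.0 to 75.0 in shNull. On the CPM scale both shSETD8 libraries were below both shNull libraries, but shNull replicate 2 carried most of the gap. The log2 fold change of -1.13 ± 0.49 became -0.50 without shNull replicate 2 and -1.58 without shNull replicate 1.

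**Figure D2:**
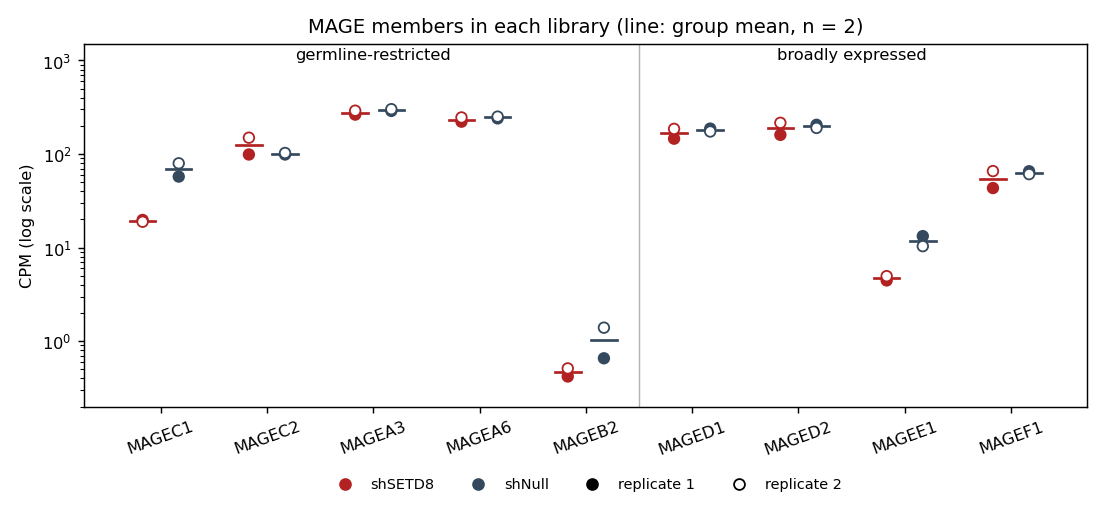
Points give CPM (log axis) of each measured MAGE gene in each library, with shSETD8 in red to the left of shNull in dark blue, filled for replicate 1 and open for replicate 2, and short lines give the mean of 2 libraries. MAGEC1 and MAGEE1 lie lower in both shSETD8 libraries, while the groups of MAGEC2, MAGEA3, MAGEA6, MAGED1, MAGED2 and MAGEF1 overlap.

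Among the broadly expressed genes, MAGEE1, whose product binds α-dystrobrevin of the dystrophin complex, was the member with separate groups. It had 234 and 242 counts in shSETD8, against 586 and 431 counts in shNull. This is 4.46 and 4.96 CPM in shSETD8 and 13.3 and 10.4 CPM in shNull. The shSETD8 libraries were again both low and close together, at 37.8% and 41.9% of the shNull mean. Means were 4.71 ± 0.349 CPM in shSETD8 and 11.8 ± 2.06 CPM in shNull (SD, n = 2 each), with a log2 fold change of -1.33 ± 0.21. Leaving out any of the 4 libraries gave -1.50 to -1.14. MAGEE1 has no read-length window in common with another gene. Its promoter window, shown for contrast with those above and located at chrX:76427590-76427739, plus strand, held neither GGATGTG nor CCGGAT nor CCGGAA.
MAGEE1: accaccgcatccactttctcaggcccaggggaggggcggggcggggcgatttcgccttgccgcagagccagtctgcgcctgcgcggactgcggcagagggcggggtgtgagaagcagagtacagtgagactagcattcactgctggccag

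MAGED1, an adaptor of the neurotrophin receptor p75 that also binds the ligase PJA1, was at 146 and 186 CPM in the shSETD8 libraries, against 187 and 174 CPM in shNull. MAGED2, mutated in a transient antenatal form of Bartter syndrome, was at 160 and 216 CPM in the shSETD8 libraries, against 205 and 190 CPM in shNull. MAGEF1, a partner of the ligase NSMCE1 and, on chromosome 3, the member not on chromosome X, was at 43.3 and 65.8 CPM in the shSETD8 libraries, against 65.5 and 61.0 CPM in shNull. All 3 genes had the same arrangement: shSETD8 replicate 1 was the lowest library, replicate 2 the highest or just below the highest, and the shNull libraries lay between or beside it. Their log2 fold changes were -0.12 ± 0.14 for MAGED1, -0.07 ± 0.16 for MAGED2 and -0.21 ± 0.21 for MAGEF1. Without shSETD8 replicate 1 they turned positive, at 0.038 for MAGED1, 0.12 for MAGED2 and 0.053 for MAGEF1. Without shSETD8 replicate 2 they were -0.31 for MAGED1, -0.30 for MAGED2 and -0.55 for MAGEF1.

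The spread between the shSETD8 libraries sorted the members in another way. On log2(CPM + 0.5), the shSETD8 libraries lay 0.06 apart for MAGEC1, 0.14 for MAGEE1, MAGEB2 and MAGEA3 and 0.15 for MAGEA6. They lay 0.35 apart for MAGED1, 0.43 for MAGED2, 0.59 for MAGEC2 and 0.60 for MAGEF1. The shNull libraries differed most for MAGEC1 (0.47), MAGEE1 (0.34) and the low-count MAGEB2 (0.71), and by 0.05 to 0.11 for the other 6. Between the nearest libraries of the groups, the difference of shSETD8 minus shNull was -1.52 for MAGEC1 and -0.99 for MAGEE1, larger in size than either group's own spread. It was -0.19 for MAGEB2, smaller in size than its shNull spread. Across the 11600 genes averaging 100 or more counts, the SD of the within-group log2 difference was 0.469 within shSETD8 and 0.195 within shNull.

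**Figure D3:**
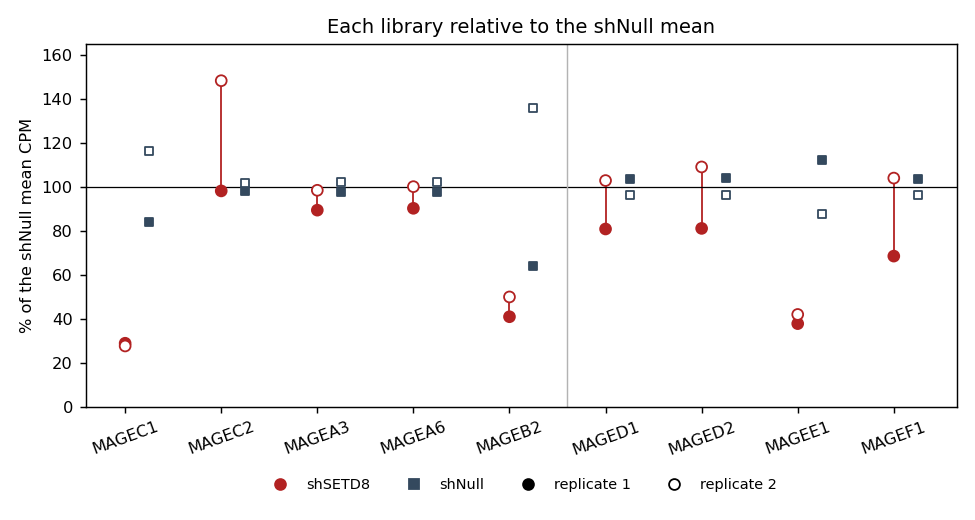
Each point gives a library's CPM as a percentage of the shNull mean for that gene, with shSETD8 as red circles joined by a line and shNull as dark blue squares to their right, filled for replicate 1 and open for replicate 2. MAGEC1 and MAGEE1 lie at 27.6% to 41.9% in both shSETD8 libraries, while MAGEC2 and MAGEF1 span 98.1% to 148% and 68.5% to 104%.

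Across all genes, edgeR's quasi-likelihood test called 0 of 14546 genes (0%) at a Benjamini-Hochberg adjusted p under 0.05, its lowest adjusted p being 0.289. It therefore called 0 of the 9 MAGE genes, and 1573 of all genes (10.8%) had an unadjusted p under 0.05. DESeq2 called 283 of 14552 genes (1.94%), 135 higher (0.928%) and 148 lower (1.02%) in shSETD8. Its calls held 2 of the 9 members, MAGEC1 and MAGEE1, both lower. Both shSETD8 libraries lay below both shNull libraries for 3 of 9 members, MAGEC1, MAGEE1 and MAGEB2. The share was 22.4% over all tested genes and 37.6% over those of chromosome X, where these 3 members lie. Both lay above for 0 of 9 members, against 22.9% of all tested genes and 10.3% of the X-linked ones. In either direction the groups did not overlap for 45.3% of all tested genes. Since the members were named with this contrast known, these counts say nothing about the family. By log2 fold change, MAGEC1 stood 65th from the lowest of the 14546 tested genes and MAGEE1 157th.

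The log2 fold changes of germline-restricted and broadly expressed members covered overlapping ranges, -1.83 to 0.30 and -1.33 to -0.07. The median log2 fold change was -0.09 over 5 germline-restricted genes, 1 above 0 and 4 below, and -0.17 over 4 broadly expressed genes, all below 0. The median over all tested genes was 0.007. Each type held genes under 50% of the shNull mean in both shSETD8 libraries, MAGEC1 and MAGEB2 in the one and MAGEE1 in the other, and genes whose groups overlapped. MAGEB2 only just met this, at 40.9% and 49.9% on 22 and 25 counts, and its shNull libraries held 29 and 58. Summed over each type, germline-restricted members gave 605 and 705 CPM in shSETD8 and 686 and 736 CPM in shNull. Most of this was MAGEA3 and MAGEA6, which are not separate measurements. Together they gave 486 and 537 CPM in shSETD8 and 529 and 553 CPM in shNull. Broadly expressed members gave 354 and 472 CPM in shSETD8 and 471 and 436 CPM in shNull. Replicate 1 of shSETD8 was the lowest library in both sums, and replicate 2 lay within or just above the shNull range.

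Levels between genes were compared per kilobase of exon (CPM per kb). The length was the union of the exons of all GENCODE v29 transcripts of a gene, which can exceed that of any single transcript. It was 6016 bases for MAGED1 and 1636 bases for MAGEF1. In shSETD8 the order was MAGEA3 (148 and 163), MAGEA6 (119 and 132), MAGED2 (54.5 and 73.3), MAGEC2 (49.7 and 75.1), MAGEF1 (26.5 and 40.2), MAGED1 (24.3 and 30.9), MAGEC1 (4.63 and 4.43), MAGEE1 (1.23 and 1.37) and MAGEB2 (0.261 and 0.318). In shNull the order was the same, with MAGEC1 at 13.4 and 18.6 CPM per kb and MAGEE1 at 3.66 and 2.86. The ranges of MAGED2 and MAGEC2 overlapped in shSETD8, as did those of MAGEF1 and MAGED1. Within every library MAGEF1 was above MAGED1 per kilobase but below it in CPM, so their order depends on the exon length used. Per kilobase, MAGED2 was above MAGEC2 in shSETD8 replicate 1 and below it in replicate 2. The position of MAGEA3 above MAGEA6 rests on reads that partly fit both genes.

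The table held 17 further MAGE family genes, of which 14 passed the filter. Their median log2 fold change was -0.16, 2 above 0 and 12 below, and edgeR called 0 of them, with 3 at an unadjusted p under 0.05, against 10.8% of all tested genes. DESeq2 called 2 of the 14, both lower, against 1.02% of all genes called lower. MAGEA11, known as a coregulator of the androgen receptor, had 27 and 31 counts in shSETD8, against 81 and 99 counts in shNull (log2 fold change -1.87 ± 0.34, DESeq2 adjusted p = 0.0393, edgeR adjusted p = 0.356). MAGEA10 was at 10.3 and 7.60 CPM in the shSETD8 libraries, against 15.9 and 15.5 CPM in shNull (log2 fold change -0.81 ± 0.20, DESeq2 adjusted p = 0.0480, edgeR adjusted p = 0.381). For both genes all shSETD8 libraries lay below all shNull libraries. This held for 5 of the 14 genes, against 22.4% of all tested genes and 37.6% of the tested X-linked genes. The reverse held for 1, against 22.9% of all and 10.3% of the X-linked ones.

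Other type I genes had a range of patterns. MAGEA1, the first human tumour antigen of this kind to be cloned, was at 2.31 and 5.32 CPM in the shSETD8 libraries, against 6.66 and 7.36 CPM in shNull, with shSETD8 replicate 1 the lowest. MAGEA9B was at 3.39 and 6.02 CPM in the shSETD8 libraries, against 2.45 and 2.31 CPM in shNull, and 84.7% of its windows also occur in MAGEA9. MAGEA12 and MAGEA2, which lie between MAGEA3 and MAGEA6 in the RefSeq gene order, had log2 fold changes of -0.05 ± 0.10 and -0.04 ± 0.08. MAGEA2 was at 371 and 390 CPM in shSETD8 and at 388 and 392 CPM in shNull, and 96.4% of its windows also occur in MAGEA2B. The MAGEA genes of that stretch thus stood at about the same level in all 4 libraries. MAGEC1, MAGEB2, MAGEA1, MAGEA10 and MAGEA11 were lower in both shSETD8 libraries than in either shNull library. So were 22.4% of all tested genes and 37.6% of the tested X-linked genes. MAGEA9B was higher in both shSETD8 libraries, and the groups of MAGEC2, MAGEB1 and MAGEA8 overlapped.

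Of the other type II genes, MAGED4 was at 19.2 and 31.4 CPM in the shSETD8 libraries, against 30.9 and 28.2 CPM in shNull, and 99.0% of its windows also occur in MAGED4B. MAGEH1 was at 4.20 and 2.50 CPM in the shSETD8 libraries, against 5.44 and 3.30 CPM in shNull. TRO, or trophinin, was at 55.2 and 71.2 CPM in the shSETD8 libraries, against 71.8 and 70.1 CPM in shNull. NDN, the imprinted gene for necdin, had a log2 fold change of -0.16 ± 0.13, and NDNL2, a subunit of the SMC5/6 complex, one of -0.05 ± 0.13. MAGED4 and TRO repeated the arrangement of MAGED1, with shSETD8 replicate 1 the lowest library.

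**Figure D4:**
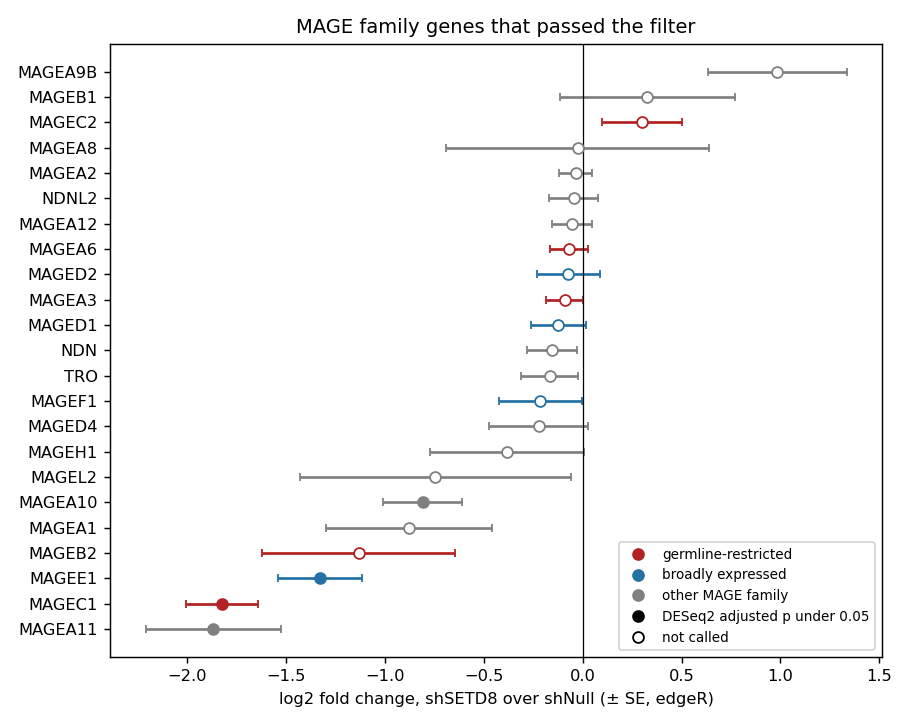
Points give the log2 fold change of shSETD8 over shNull with its SE from edgeR for the 23 MAGE family genes that passed the filter, coloured by type and filled where the DESeq2 adjusted p was under 0.05, which for the members is no independent test. The filled points are MAGEA11, MAGEC1, MAGEE1 and MAGEA10, all below 0, while MAGEA2, MAGEA3, MAGEA6 and MAGEA12 lie within 0.10 of 0.

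Ubiquitin ligases that MAGE proteins bind, their substrates and other related proteins formed a list of 28 symbols, of which 24 were tested. edgeR called 0, with 3 at an unadjusted p under 0.05, against 10.8% of all tested genes, and DESeq2 called 1, against 1.94%. The median log2 fold change was -0.03, 11 above 0 and 13 below. Both shSETD8 libraries lay above both shNull libraries for 2 of the 24 genes, against 22.9% of all, and below them for 9, against 22.4%. TRIM28 was at 663 and 626 CPM in the shSETD8 libraries, against 657 and 660 CPM in shNull (log2 fold change -0.03 ± 0.09). PJA1 and NSMCE1, the partners of MAGED1 and MAGEF1, had log2 fold changes of 0.05 ± 0.15 and 0.10 ± 0.12. The DESeq2 call was PRKAA2, the α2 catalytic subunit of AMPK, at 11.1 and 15.7 CPM in the shSETD8 libraries, against 5.46 and 7.60 CPM in shNull (log2 fold change 1.04 ± 0.27, DESeq2 adjusted p = 0.0377, edgeR adjusted p = 0.386). NSMCE4A, another SMC5/6 subunit, was at 102 and 75.1 CPM in the shSETD8 libraries, against 60.0 and 62.6 CPM in shNull (log2 fold change 0.53 ± 0.17, edgeR adjusted p = 0.424).

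Of 20 genes for DNA methylation and for silencing of germline genes, all were tested, with a median log2 fold change of -0.07, 7 above 0 and 13 below. edgeR called 0, with 1 at an unadjusted p under 0.05, against 10.8% of all tested genes, and DESeq2 called 1, against 1.94%. That gene was the histone deacetylase HDAC2, at 382 and 383 CPM in the shSETD8 libraries, against 521 and 484 CPM in shNull (log2 fold change -0.39 ± 0.09, DESeq2 adjusted p = 0.0327, edgeR adjusted p = 0.365). MBD2, a methyl-CpG binding protein, was at 34.3 and 21.5 CPM in the shSETD8 libraries, against 18.9 and 19.6 CPM in shNull (log2 fold change 0.54 ± 0.24, edgeR adjusted p = 0.488), with shSETD8 replicate 1 the highest.

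The patterns most like those of the leading members were found by the distance between centred log2(CPM + 0.5) profiles over 4 libraries, among 11603 other genes. For MAGEA3 they were NUP35, GLYR1 and C1orf74, at distances of 0.014 to 0.015. For MAGED2, the most abundant broadly expressed member, they were TMED4 (0.0049), COA5 (0.023) and NDFIP1 (0.026). MAGEC1 and MAGEE1 were added after their values were seen. The nearest gene to MAGEE1 was TOX3, at a distance of 0.097, with 4.96 and 5.14 CPM in shSETD8 and 14.8 and 11.8 CPM in shNull. The nearest to MAGEC1, DIP2C, lay further off, at 0.41.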

How the data were processed

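Raw counts per gene, as deposited by the authors and not normalised, were used for 4 RNA-seq libraries. The submitters' processing notes name build hg19, STAR 2.4.0.1 and DESeq 1.32.0, besides FastQC 0.10.1 and Trimmomatic 0.36. Neither the counting program nor its use of strand is stated in the sources used here. Another 2 sample columns were not used. The 65 rows without a usable symbol stayed in the tests.

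Counts were fitted with edgeR 4.0.16 (R 4.3.3): TMM normalisation, filterByExpr (14546 genes kept, 2293 removed), quasi-likelihood F tests and Benjamini-Hochberg adjustment over all genes, at a threshold of 0.05. The DESeq2 1.42.0 Wald test was an alternative. The SE was taken as the absolute log2 fold change divided by √F. The steps were tested on simulated counts.

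Replicate numbers follow record order and pair nothing. P-values set the difference between the groups against the spread between these clones. The members and lists were chosen with earlier results of these data known. Named genes were the members, other MAGE genes with a mean of at least 100 counts, and the 3 lowest p of each list, 2 of which are not reported here, with TRIM28, PJA1 and NSMCE1. RefSeq sequences (GRCh38.p14) matched all 10 members.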

Additional observations from a re-analysis of the deposited data

How the results depend on the processing

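edgeR called 0 genes with TMM or DESeq2 size factors, without the filter and at an adjusted p under 0.01, while DESeq2 called 283 and the edgeR likelihood ratio test 247. With a library left out, and the single library left in its group taken to vary as the other group does, edgeR called 0 to 2550 genes: 1418 without shSETD8 replicate 1, 2550 without shSETD8 replicate 2 and 0 without either shNull library. Among ligase partners and substrates the calls were 1 with DESeq2 and 0 to 4 with a library left out. Among other cancer-testis genes they were 2 and 0 to 8, among methylation and silencing genes 1 and 0 to 4, and among other MAGE family genes 2 and 0 to 5. The cause was not tested. Tested genes numbered 24 for ligase partners and substrates, 44 for other cancer-testis genes, 20 for methylation and silencing genes and 14 for other MAGE genes. With a library left out, the calls in each list were not compared with the share of all genes called in the same fit. Those list counts therefore say nothing about these lists in particular.

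Of 72 alternative values of the 9 members, 4 changed sign: MAGEC2 was at -0.028 without shSETD8 replicate 2 and at 0.57 without replicate 1. Without shSETD8 replicate 1, MAGED1 was at 0.038, MAGED2 at 0.12 and MAGEF1 at 0.053, and without replicate 2 they were at -0.31, -0.30 and -0.55. MAGEC1 ranged from -2.04 to -1.57 and MAGEE1 from -1.50 to -1.14 over their 8 alternatives each. Whether they were called depended on the test. With all libraries, DESeq2 and the edgeR likelihood ratio test called both, and the quasi-likelihood test called neither. No paired analysis was possible because the replicate numbers follow record order and the labels tie no shSETD8 library to a shNull library. MAGEB2 rested on 22 to 58 counts per library, and the counting intervals of its shNull libraries did not overlap.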

Other observations

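Other cancer-testis genes formed a list of 84 symbols outside the MAGE family, of which 54 had a row and 44 were tested. Their median log2 fold change was -0.005, with 22 above 0 and 22 below. edgeR called 0, with 4 at an unadjusted p under 0.05, against 10.8% of all tested genes, and DESeq2 called 1 higher and 1 lower, against 1.94% of all genes in either direction. TPTE, a testis-expressed phosphatase homologue, had 35 and 36 counts in shSETD8 and 104 and 130 counts in shNull (log2 fold change -1.96 ± 0.32, DESeq2 adjusted p = 0.00782, edgeR adjusted p = 0.320). PAGE1 was at 55.2 and 25.7 CPM in shSETD8 and at 20.3 and 13.7 CPM in shNull (1.25 ± 0.40, DESeq2 adjusted p = 0.0367, edgeR adjusted p = 0.424). PRAME, an abundant tumour antigen, was at 353 and 380 CPM in shSETD8 and at 524 and 452 CPM in shNull (-0.41 ± 0.11, DESeq2 adjusted p = 0.0871). CSAG1 and CSAG3, which lie between MAGEA3 and MAGEA6 in the RefSeq gene order, had log2 fold changes of 0.04 ± 0.12 and -0.09 ± 0.20, and were named after their values were seen.

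Genes on chromosome X, where 8 of the 9 measured members lie, were slightly lower in shSETD8 as a whole, a comparison added after the data were seen. Of 564 tested X-linked genes 68.4% had a log2 fold change below 0, against 47.9% of 13903 genes on other chromosomes. The median was -0.10 for X-linked genes and also -0.10 without the MAGE family genes. On log2(CPM + 0.5) against the shNull mean, X-linked genes had a median of -0.18 in replicate 1 of shSETD8 and of -0.03 in replicate 2. Other chromosomes also had medians away from 0. Among 23 chromosomes with at least 100 tested genes, the median log2 fold change ran from -0.16 on chromosome 6 to 0.22 on chromosome 18. Chromosome Y had fewer tested genes and was left out, so this range does not cover it. By library, chromosome 18 had a median of 0.33 (shSETD8 replicate 1) and 0.03 (replicate 2), and chromosome 6 one of -0.15 and -0.16. The part of such chromosome-wide differences in the MAGE values was not tested.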
